A study of Mus musculus with 2 samples.

Results

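The cells described here were B-cells that carried many transcripts of both Fcer2a, which encodes the low-affinity IgE receptor CD23, and Cr2, which encodes the complement receptor CD21. The mice were males with a TNF transgene (TNF-Tg) on a C57BL/6 background, and the tissue was the popliteal lymph node (PLN), into which the hindpaw and ankle drain. A cell was included when it had 5000 to 15000 UMIs (unique molecular identifiers, the counted transcript molecules), when Cd79a, Cd79b and Ms4a1 together made up at least 0.25% of them, and when it had at most 1 UMI summed over Cd3d, Cd3e and Cd3g. It also had under 20 UMIs of Jchain, under 4 of Cd83 and Egr3 together and under 4 of the interferon response genes Ifit1, Ifit3, Ifit3b and Isg15 together. Of these gated B-cells, those with at least 3 Fcer2a and at least 4 Cr2 UMIs were called CD23 CD21-high. There were 723 of them among 4704 gated B-cells and 8201 barcodes of the Advanced library, and 773 among 6361 gated B-cells and 8242 barcodes of the Early library, which gave 1496 of 16443 barcodes in all.

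The Advanced library came from mice older than 8 months with Advanced arthritis, and the Early library from mice of 5 to 6 months with Early arthritis. Each was 1 library made from 6 PLNs of 3 mice that were pooled, and both groups carried the TNF transgene, so there was no wild-type node among these samples. Live nucleated cells were sorted (Hoechst-positive, Sytox Green-negative) with no selection by lineage. With 1 library per stage there was no replicate, so no test was made, all intervals are 95% intervals for counting error only, and age, stage of arthritis and library cannot be told apart.

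CD21 binds fragments of complement C3 on antigen and lowers the threshold of the B-cell receptor. CD23 binds IgE and is carried by follicular B-cells, whereas marginal zone B-cells of the mouse carry much CD21 and little CD23 and depend on the receptor Notch2. B-cells with IgM, CD23 and high CD21 at the surface, called B-cells in inflamed nodes or Bin cells, are known to gather in the joint-draining nodes of TNF-Tg mice. Reads near the end of a transcript do not separate CD21 from CD35, both products of Cr2, or the CD23a and CD23b forms of Fcer2a, and a UMI count is not a level of surface protein.

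The promoters of the genes that define the cells, and of Dtx1, which ranked first among the genes that differed from CD23-high CD21-low cells, are shown because Notch2 acts through the DNA-binding factor Rbpj. The core of its motif, TGGGAA on either strand (TTCCCA as its reverse complement), is in capitals. Each window runs from 250 bases before to 50 bases after a transcription start, in the direction of the gene, from RefSeq on GRCm38.p6. All of these genes lie on the minus strand.

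Cr2, chr1:195176670-195176969: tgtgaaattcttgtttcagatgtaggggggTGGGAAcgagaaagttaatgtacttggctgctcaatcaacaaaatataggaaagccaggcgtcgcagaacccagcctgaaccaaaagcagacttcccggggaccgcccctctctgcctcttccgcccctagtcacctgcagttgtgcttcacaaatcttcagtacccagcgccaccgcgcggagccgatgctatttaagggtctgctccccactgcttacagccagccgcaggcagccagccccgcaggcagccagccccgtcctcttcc

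Fcer2a, second of 3 starts, chr8:3690812-3691111: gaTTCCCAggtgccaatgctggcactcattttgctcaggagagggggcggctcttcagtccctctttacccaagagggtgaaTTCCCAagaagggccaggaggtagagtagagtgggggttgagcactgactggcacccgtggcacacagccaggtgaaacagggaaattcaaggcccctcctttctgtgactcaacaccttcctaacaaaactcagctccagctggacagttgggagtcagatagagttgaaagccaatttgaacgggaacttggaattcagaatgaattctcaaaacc

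Dtx1, chr5:120711620-120711919: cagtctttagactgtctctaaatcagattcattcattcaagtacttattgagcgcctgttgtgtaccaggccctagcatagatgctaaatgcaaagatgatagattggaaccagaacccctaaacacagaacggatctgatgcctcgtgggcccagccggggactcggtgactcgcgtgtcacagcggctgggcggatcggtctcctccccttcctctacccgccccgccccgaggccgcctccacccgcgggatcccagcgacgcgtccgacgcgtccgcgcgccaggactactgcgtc

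The Cr2 window held 1 match, 220 bases before the start. The second Fcer2a start had 2 matches, 248 and 168 bases before it. The other Fcer2a windows, not printed here, held 0 at chr8:3694125-3694424 and 1, 205 bases before the start, at chr8:3690341-3690640. The Dtx1 window held none. The same 6 letters occurred in 25.6% of all 32851 promoter windows of that table (8397 windows), so a match in these windows is a description of their sequence only.

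The markers put these cells in the B-cell lineage. Pax5, a transcription factor gene of B-cells that the rule did not use, stood at 332 CPM (UMIs of a gene scaled to a class total of 1e+06) in the Advanced and 301 CPM in the Early CD23 CD21-high cells, where T-cells had 7.11 CPM in the Advanced and 3.06 CPM in the Early library. Cd79a, a signalling chain of the B-cell receptor that the gate itself used, stood at 2756 CPM in the Advanced CD23 CD21-high cells and 2922 CPM in the Early ones, and Ighm, the constant gene of IgM, at 2114 and 2061 CPM. An Ighm UMI was found in 99.9% of the Advanced and 100% of the Early cells. It was also found in 85.6% of Advanced and 78.1% of Early T-cells, which had 273 and 349 CPM. The presence of an Ighm UMI alone therefore does not mark a cell as a B-cell. Fcer2a had a median of 5 UMIs per Advanced cell and 4 per Early cell, and Cr2 of 6 and 5, with the most in 1 cell at 22 for each gene in the Advanced and at 17 and 20 in the Early library. T-cells of the same libraries with at most 1 UMI of the B-cell genes served as a measure of free RNA: an Fcer2a UMI was present in 10.3% of 494 Advanced and 6.85% of 73 Early T-cells, and a Cr2 UMI in 10.53% and 10.96%. Median depth was 9722.5 and 8560 UMIs in those T-cells, against 8380 and 7770 UMIs in the CD23 CD21-high cells. The rule for T-cells kept those with the least B-cell RNA, so these shares are a low estimate of free RNA.

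The CD23 CD21-high cells were a range within the B-cells and not a separate cluster in counts of Fcer2a and Cr2. In the Advanced library 52 members stood on the edge with exactly 3 Fcer2a and 4 Cr2 UMIs, 237 cells lay just outside with 2 Fcer2a UMIs, and 285 with 3 Cr2 UMIs. The Early library had 71 members on that edge, with 361 and 314 cells just outside. Among cells with 3 or more Fcer2a UMIs, the number at each Cr2 count fell off without a gap: 343, 379, 346, 285, 206, 140 and 114 Advanced cells had 0 to 6 Cr2 UMIs.

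**Figure D1:**
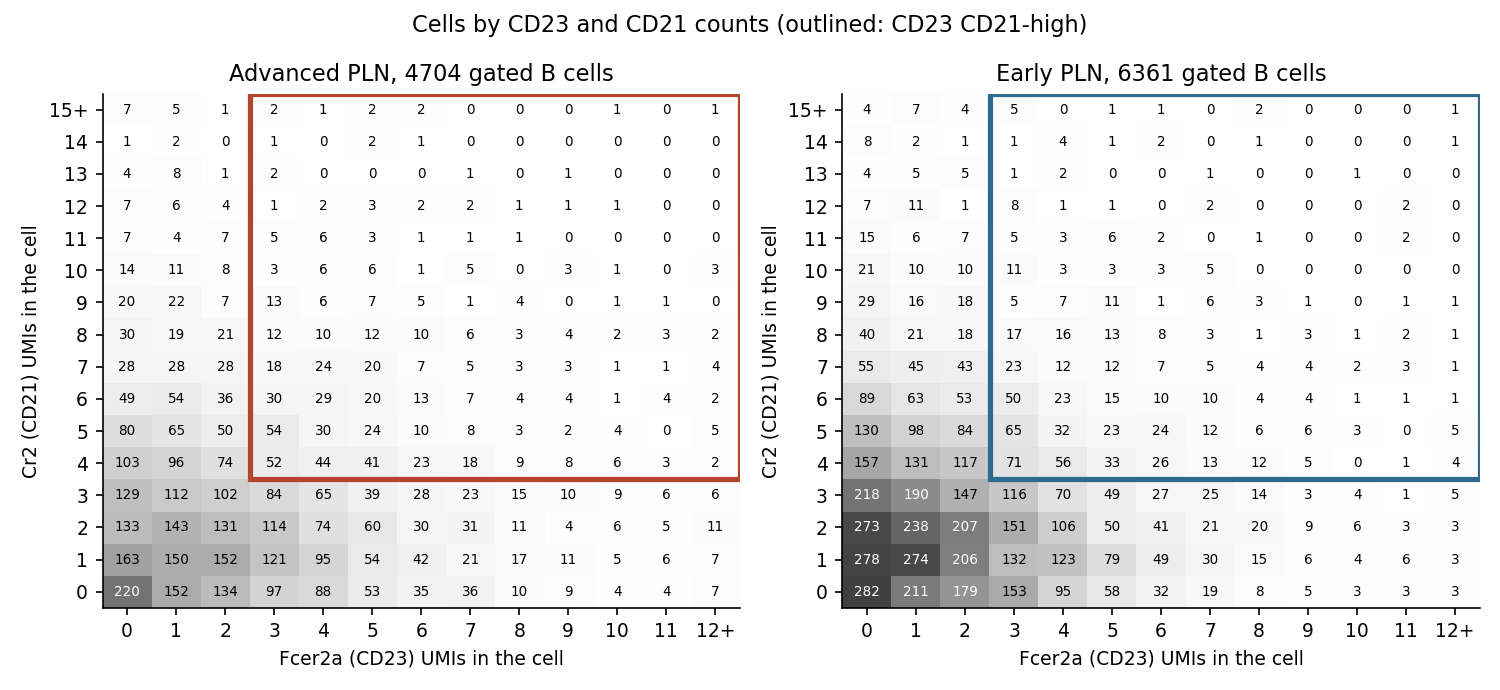
Number of gated B-cells (printed and as grey shade) at each pair of Fcer2a (horizontal) and Cr2 (vertical) UMI counts, Advanced library on the left and Early on the right, with the CD23 CD21-high cells outlined. The 723 Advanced and 773 Early CD23 CD21-high cells fill the upper right of a continuous distribution with no gap at the outline.

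High Fcer2a and high Cr2 occurred together about as often as their separate frequencies give. Of cells with 3 or more Fcer2a UMIs, 34.8% had 4 or more Cr2 UMIs in the Advanced library, against 34.5% of the remaining gated B-cells, and in the Early library the shares were 33.3% and 33.1%. Independent conditions would have given 719 Advanced and 770 Early cells, or 731 and 821 when computed within bins of total UMIs. Depth mattered to this: among Advanced cells of 6000 to 7000 UMIs, Cr2 reached 4 in 18.2% of CD23-high and 21.5% of the remaining cells, but at 13000 to 14000 UMIs in 71.4% and 47.2%. Early cells of 6000 to 7000 UMIs had 29.3% and 33.4%, and those of 12000 to 13000 UMIs had 77.9% and 57.9%.

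The counts of both genes were more spread between cells than sampling of molecules gives. Over the gated B-cells the variance of Fcer2a, as Pearson chi-square per cell with depth taken into account (1 for sampling alone), was 2.57 in the Advanced and 2.26 in the Early library, and that of Cr2 2.37 and 2.14. Each UMI was also given at random to 1 of 2 equal parts, and cells were chosen on the first part by at least 2 UMIs of each gene. On that part the chosen cells had 2.52-fold (Advanced) and 2.68-fold (Early) the Fcer2a level of the cells not chosen, and on the other part 1.59-fold in each. For Cr2 the ratios were 2.17 and 2.08 on the part used to choose and 1.49 and 1.36 on the other. The ratios on the part not used to choose were thus smaller but above 1. Of the chosen cells 37.4% of Advanced and 33.7% of Early ones passed again on the other part, against 11.1% and 9.80% of the cells not chosen. These shares were not matched for depth, and deeper cells passed the full rule more often, as given below. How much of the difference between them came from depth was not tested.

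The first comparison between stages was the share of gated B-cells that were CD23 CD21-high. It was 15.4% (14.4% to 16.4%) in the Advanced and 12.2% (11.36% to 12.98%) in the Early library, a ratio of 1.26 (1.14 to 1.40). Among all barcodes the shares were 8.82% and 9.38%, with a ratio of 0.940 (0.848 to 1.04). Advanced gated B-cells were also deeper, with a median of 7315 UMIs against 6518, and the share depended strongly on depth: it was 7.14% at 5000 to 6000 UMIs and 45.5% at 13000 to 14000 in the Advanced library, and 4.53% and 45.4% in the Early library, while the last bin of 14000 to 15000 UMIs had 35.8% and 54.7%. With every cell thinned to 5000 UMIs, 4.32% of Advanced and 4.09% of Early gated B-cells passed, a ratio of 1.06 (0.874 to 1.27). Given the same distribution over 1000-UMI bins, both shares were 13.7%, a ratio of 1.00. At matched depth no difference in the share was detectable, and the interval after thinning reached 1.27.

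**Figure D2:**
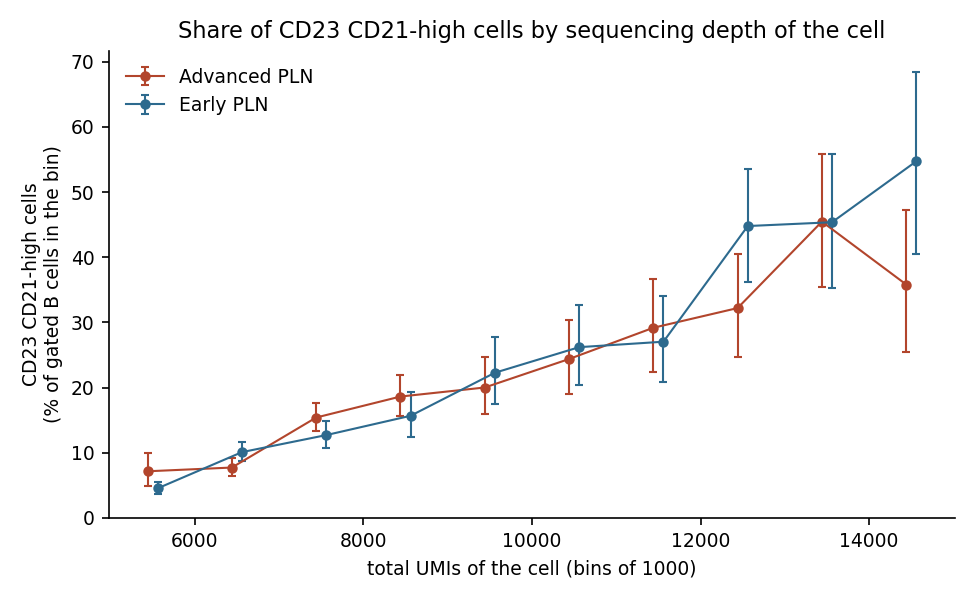
Percent of gated B-cells that were CD23 CD21-high (vertical) by total UMIs per cell in bins of 1000 (horizontal), Advanced and Early libraries, with bars for exact 95% intervals. The share is lowest in the first bin (7.14% Advanced and 4.53% Early) and reaches 35.8% and 54.7% in the last, with the highest Advanced value of 45.5% in the bin before it, and the intervals of the 2 libraries overlap in every bin.

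The 2 conditions of the rule went different ways once depth was equal. Fcer2a of 3 or more was found in 44.1% of Advanced and 36.5% of Early gated B-cells, and after thinning in 27.9% and 25.2%, a ratio of 1.11 (1.03 to 1.19). Cr2 of 4 or more was found in 34.7% and 33.1%, and after thinning in 17.3% and 19.4%, a ratio of 0.892 (0.815 to 0.975). With at least 4 Fcer2a and 6 Cr2 UMIs the share was 6.16% in the Advanced and 3.93% in the Early library without thinning, a ratio of 1.57 (1.32 to 1.87).

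Set against all other gated B-cells, of which there were 3981 and 5588, the CD23 CD21-high cells differed little. Of 4523 genes at 20 CPM or more, 0 were past 1.5-fold in the same direction in both libraries (0% higher and 0% lower), apart from Fcer2a and Cr2 themselves, whose levels the rule set. At a smaller size of 1.25-fold, chosen after the values were seen, 18 genes were higher (0.398%) and 7 lower (0.155%). Since the rule used these same cells, the counts describe them and test nothing.

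Among the 18 was Cd22, which encodes a receptor for sialic acid that dampens signals of the B-cell receptor. It stood at 208 CPM in Advanced and 201 CPM in Early CD23 CD21-high cells, against 163 and 158 CPM in the other B-cells, ratios of 1.28 (1.21 to 1.36) and 1.27 (1.20 to 1.35). Cr1l, the complement regulator also known as Crry, lies beside Cr2 on chromosome 1 and had ratios of 1.31 and 1.33 (107 and 103 CPM, against 81.4 and 77.7 CPM). Ffar1, which encodes a receptor for free fatty acids and lies beside Cd22 on chromosome 7, had 35.0 and 40.8 CPM, against 26.6 and 27.8 CPM. Rasgef1b had ratios of 1.31 in each library, and Map3k7, which encodes the kinase TAK1 of the TNF and Toll-like receptor pathways, 1.30 and 1.29. Reads of neighbouring genes such as Cr2 and Cr1l can be hard to assign, and how far that bears on Cr1l was not tested.

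The 7 genes that were lower included Apoe, which encodes a lipid carrier made by macrophages and some B-cells, with 123 and 226 CPM, against 278 and 337 CPM in the other B-cells, ratios of 0.442 (0.411 to 0.475) and 0.670 (0.635 to 0.707). Ahr, the aryl hydrocarbon receptor gene, which is high in marginal zone and B1 cells, had ratios of 0.732 and 0.771, and the G protein regulator Rgs10 0.712 and 0.694. These genes and the 18 above were named after their values were seen. Cd9, a tetraspanin gene of marginal zone and B1 cells, stood below 20 CPM in the CD23 CD21-high cells, at 8.98 and 9.35 CPM, against 14.3 and 19.9 CPM in the other B-cells.

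By gene list, 0 members of any list were past 1.5-fold against the other B-cells, where the median of all 4523 genes was 0.03 (log2) in the Advanced and 0.06 in the Early library. The 13 measured genes of the B-cell receptor and its co-receptors had medians of 0.10 and 0.17, with 10 of 13 above 1 in both libraries. Those of TNF and NF-kB signalling had 0.17 and 0.14, with 11 of 13 above 1 in both, among them Traf3 at ratios of 1.23 and 1.26. The 5 measured genes of the IL-4 and STAT6 response, of which Fcer2a is a known target, were all above 1, with medians of 0.17 and 0.19 (Il4ra 1.15 and 1.12). For comparison, 58.2% and 64.6% of all genes tested lay above 1. The rule had chosen the cells on Fcer2a. Against B-cells with the same 3 or more Fcer2a UMIs but at most 1 Cr2 UMI, the IL-4 and STAT6 list had medians of -0.03 and 0.09. There 2 of its 5 genes lay above 1 and 1 below 1 in both libraries. The 10 genes of the germinal centre list all lay under the minimum of 20 CPM.

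The closest class was that of the CD23-high CD21-low B-cells, which had the same 3 or more Fcer2a UMIs but at most 1 Cr2 UMI (722 Advanced and 826 Early cells). Against them 16 of 4598 genes were higher in the CD23 CD21-high cells (0.348%) and 5 lower (0.109%) at 1.5-fold in both libraries. Dtx1 and Hes1 of the Notch2 pathway stood among the higher ones and Klf2 and S1pr4 among the lower ones. The classes also differed in depth, with medians of 8380 and 7770 UMIs, against 6761.5 and 6069 UMIs.

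Dtx1, a Notch target that encodes a ubiquitin ligase, had 83.7 CPM in the Advanced and 93.8 CPM in the Early CD23 CD21-high cells, against 35.7 and 48.3 CPM in the CD23-high CD21-low cells. The ratios were 2.35 (1.99 to 2.78) and 1.94 (1.68 to 2.25). Hes1, which encodes a repressor of transcription that Notch induces, had 161 and 147 CPM, against 94.5 and 85.1 CPM, ratios of 1.70 (1.53 to 1.90) and 1.73 (1.55 to 1.94). Both genes were more than 1.5-fold apart in each library, and the intervals lay above 1.5 for each. Notch2 itself differed less, with 79.2 and 80.3 CPM, against 67.6 and 62.1 CPM, ratios of 1.17 (1.02 to 1.34) and 1.29 (1.13 to 1.49). T-cells held Dtx1 at 46.9 and 48.9 CPM and Hes1 at 12.8 and 3.06 CPM. How much of either was free RNA and how much was made by the T-cells was not tested.

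Tm6sf1, a membrane protein gene placed on the marginal zone list, had 91.5 and 99.5 CPM, against 55.3 and 61.8 CPM. With it, 3 of the 8 measured genes of the marginal zone and Notch2 list were past 1.5-fold and higher, and the list had medians of 0.33 and 0.35 (log2), where all genes had 0.03 and 0.06. Plac8 was past 1.25-fold (1.35 and 1.25), and Mfng, which encodes a sugar transferase that modifies Notch, was lower (0.634 and 0.772). Cd1d1, which presents lipids to NKT cells, had 22.7 and 22.6 CPM, against 16.3 and 16.9 CPM, ratios of 1.40 (1.06 to 1.84) and 1.33 (1.02 to 1.75).

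Other genes that were higher included Rasgef1b, an exchange factor for small GTPases, with 93.01 and 95.6 CPM, against 49.5 and 54.2 CPM (1.88 and 1.76), and Pik3r4, a regulatory subunit of the lipid kinase Vps34, with 49.2 and 53.3 CPM, against 26.5 and 31.1 CPM (1.85 and 1.72). Tpst2, which sulphates tyrosines of secreted and membrane proteins, had ratios of 1.80 and 1.66. Ptprj, which encodes the phosphatase CD148, had 1.56 and 1.77. Marcks, Pdia4, Trps1 and Gm6377 lay between 1.52 and 1.68 in both libraries, and Ahr had 1.65 and 1.87. Lyz2, a lysozyme gene of macrophages and neutrophils, was also past the size (1.72 and 2.80), but 98, 75 and 22 of its 282 Advanced UMIs and 68 of its 118 Early UMIs lay in 3 cells and 1 cell. Without cells with 5 or more UMIs summed over S100a8, S100a9 and Lyz2, the Lyz2 ratios were 1.22 and 0.977.

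Klf2, a transcription factor gene that holds lymphocytes in recirculation and drives the sphingosine phosphate receptor gene S1pr1 in T-cells, was lower. It had 389 and 338 CPM in the CD23 CD21-high cells, against 672 and 579 CPM in the CD23-high CD21-low cells, ratios of 0.579 (0.550 to 0.609) and 0.583 (0.552 to 0.615). S1pr4, another sphingosine phosphate receptor gene, had 38.7 and 34.0 CPM, against 64.1 and 52.6 CPM (0.604 and 0.647). S1pr1, the exit receptor gene, had 121 and 140 CPM, against 147 and 140 CPM, so it was lower in the Advanced library (0.823, 0.745 to 0.910) and level in the Early one (1.00, 0.908 to 1.10). Of 15 measured homing and egress genes, 2 (Klf2 and S1pr4) were past 1.5-fold and lower and 0 higher. The list as a whole was not lower: 8 of the 15 lay above 1 and 5 below 1 in both libraries, with medians of 0.01 and 0.05 (log2), and Itgal, an integrin chain gene, had ratios of 1.49 and 1.52.

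Further genes of homing differed by less. Ccr7, the receptor gene for the T-cell zone chemokines, had ratios of 0.704 and 0.771. Cxcr5, the receptor gene for the follicle chemokine CXCL13, went the other way, with 86.2 and 88.2 CPM, against 63.3 and 62.5 CPM (1.36, 1.19 to 1.56, and 1.41, 1.23 to 1.62). Cd55, which limits complement on the cell surface, had 275 and 261 CPM, against 360 and 340 CPM (0.762 and 0.766). The structural genes Vim (0.617 and 0.653) and Emp3 (0.641 and 0.629) were lower, and so was the linker histone gene Hist1h1b (0.337 and 0.635), which marks dividing cells.

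Of 10 measured activation genes 0 were past 1.5-fold. Their medians were 0.26 and 0.36 (log2) and 9 lay above 1 in both libraries, where 55.1% and 62.3% of all 4598 genes lay above 1 in the Advanced and the Early library. Against all other gated B-cells the medians of the activation genes were -0.05 and 0.07, with 4 above 1 and 2 below 1 in both. Cd86, a co-stimulatory ligand gene, had 51.9 and 56.9 CPM, against 34.6 and 39.7 CPM in the CD23-high CD21-low cells (1.502, 1.25 to 1.81, and 1.43, 1.21 to 1.70). Irf4 had ratios of 1.48 and 1.47, and Myc 1.26 and 1.35. In the TNF and NF-kB list 0 of 13 were called, 11 were above 1 in both, and Nfkbiz, Traf1, Traf3 and Lta were past 1.25-fold. Cells with 4 or more UMIs of the activation genes Cd83 and Egr3 had been left out by the rule, so these values describe what was left. At 1.25-fold in both libraries 143 genes (3.11%) were higher and 45 (0.979%) lower. The 11 MHC class II genes had medians of -0.03 and -0.02 with 0 called, and the B-cell receptor list 0.14 and 0.24 with 0 of 13 called.

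Dtx1 and Klf2 also differed in steps along Cr2 among all cells with 3 or more Fcer2a UMIs. Dtx1 stood at 35.7, 48.0, 72.0, 87.4 and 106 CPM in Advanced cells with 0 to 1, 2 to 3, 4 to 5, 6 to 8 and 9 or more Cr2 UMIs, and at 48.3, 59.7, 73.7, 94.2 and 147 CPM in Early cells. Klf2 stood at 672, 524, 432, 347 and 367 CPM in Advanced and at 579, 445, 348, 329 and 328 CPM in Early cells. For Dtx1 the step across the threshold of 4 was the largest of the Advanced steps in ratio, whereas in the Early cells the last step was. Klf2 was lowest at 6 to 8 Cr2 UMIs in the Advanced cells. Hes1 was less regular, at 94.5, 156, 152, 139 and 229 CPM in Advanced and 85.1, 107, 149, 150 and 136 CPM in Early cells. Median depth also climbed over these steps, with 6761.5 UMIs in the lowest and 10143 in the highest Advanced step and 6069 and 10639 in the Early ones.

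**Figure D3:**
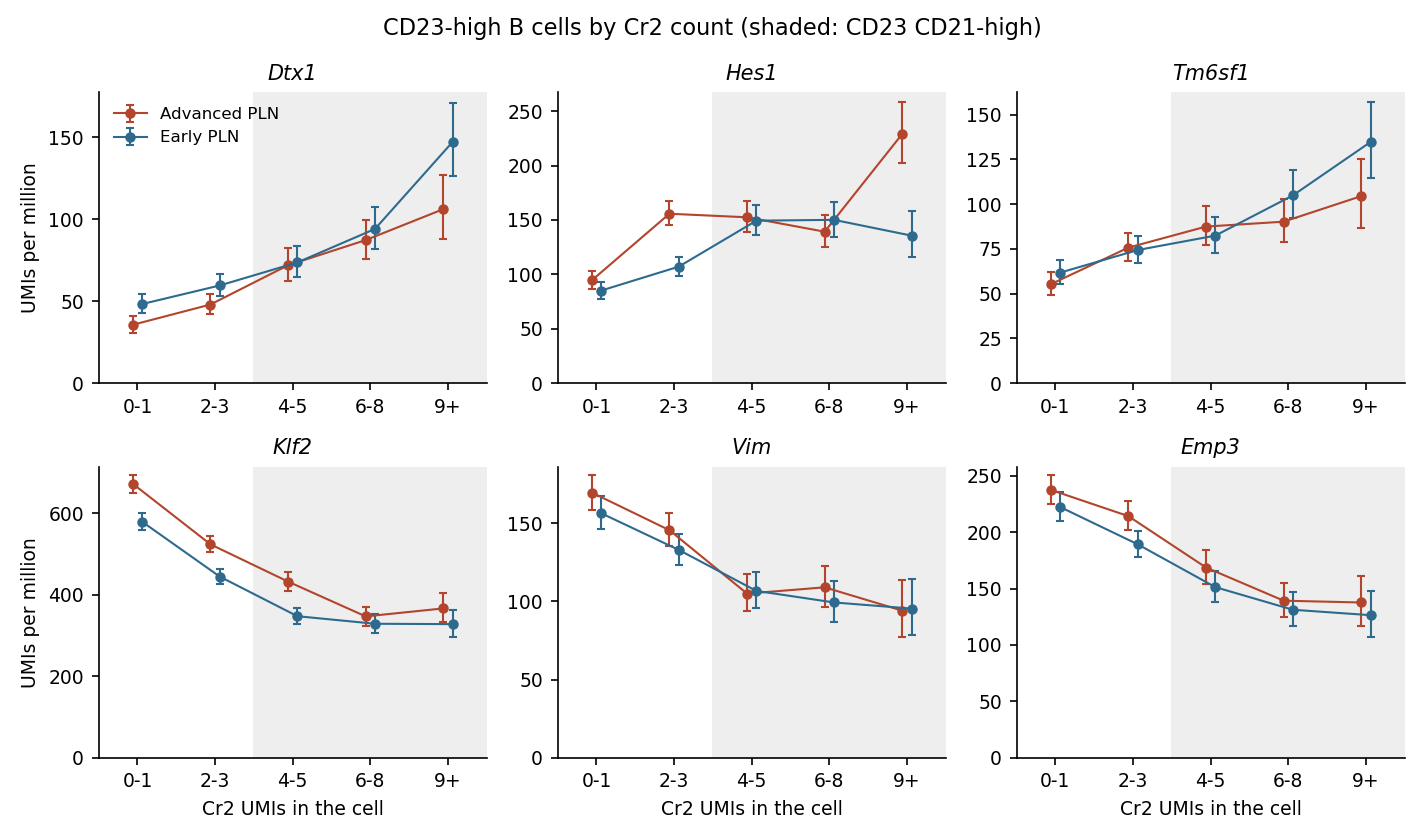
Level (CPM, vertical) of Dtx1, Hes1, Tm6sf1, Klf2, Vim and Emp3 along steps of Cr2 UMIs per cell (horizontal) among gated B-cells with 3 or more Fcer2a UMIs, Advanced and Early libraries, with bars for exact 95% Poisson intervals and shading over the CD23 CD21-high cells. Dtx1 climbs to 106 CPM (Advanced) and 147 CPM (Early) in the highest step, where Klf2 is at 367 and 328 CPM.

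The ratios of Dtx1, Hes1 and Klf2 kept their direction within ranges of depth. In cells of 5000 to 6999, 7000 to 8999 and 9000 to 15000 UMIs, Dtx1 had ratios of 2.52, 1.97 and 2.08 in the Advanced and 1.77, 1.99 and 1.65 in the Early library. Klf2 had 0.552, 0.587 and 0.703 in the Advanced and 0.696, 0.481 and 0.539 in the Early library. Hes1 lay between 1.44 and 2.23 in these 6 strata. Other genes were nearer to 1 at 9000 to 15000 UMIs than over all depths, in at least 1 library. There Cd86 had 1.17 (0.877 to 1.59) in the Advanced and 1.15 (0.816 to 1.65) in the Early library. Ahr had 1.03 and 1.40, Marcks 1.08 and 1.92 and Plac8 1.19 and 1.00, while Rasgef1b had 2.65 and 1.87. The strata held 147, 279 and 297 Advanced and 279, 197 and 297 Early CD23 CD21-high cells. Of the 12 higher and 5 lower genes named by rank, 6 (Dtx1, Rasgef1b, Hes1, Pik3r4, Tpst2 and Ptprj) and 2 (Klf2 and Vim) stayed past 1.5-fold in both libraries both with an equal distribution of UMIs and with only cells of 6000 to 9000 UMIs, while the other 9 fell short of it in at least 1 of these. Of the 16 higher genes, 10 had a promoter in the RefSeq table. The TGGGAA core was in 5 of their 13 windows (38.5%), against 25.6% of all 32851 windows, and this describes their sequence only.

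The comparison along the other receptor was with B-cells that lacked Fcer2a. The CD21-high CD23-negative B-cells had 4 or more Cr2 UMIs and 0 of Fcer2a (350 Advanced and 559 Early cells, median 8042 and 7143 UMIs), a combination known from marginal zone B-cells of the spleen. Ighd, the constant gene of IgD, was at 761 and 731 CPM in the CD23 CD21-high cells, against 403 and 395 CPM in the CD23-negative ones, ratios of 1.89 and 1.85. Cd55 had ratios of 1.51 and 1.74. Of the 14 measured follicular genes 11 lay above 1 and 0 below 1 in both libraries, with medians of 0.47 and 0.53 (log2), and of the 10 of the marginal zone and Notch2 list 1 lay above and 7 below 1 in both, with medians of -0.46 and -0.53. Of the B1 list 3 genes were measured, of which 2 lay below 1 in both. Of the 10 measured activation genes 1 lay above and 7 below 1 in both, with medians of -0.23 and -0.16. All 4611 genes had medians of 0.06 and 0.05, with 62.1% and 61.1% above 1. Among genes chosen after their values were seen, Cd9 had 8.98 and 9.35 CPM, against 30.7 and 43.2 CPM, Ahr 31.2 and 42.9 CPM, against 84.3 and 107 CPM, and Plac8 434 and 485 CPM, against 747 and 870 CPM. Dtx1 (0.683 and 0.557) and Hes1 (0.657 and 0.685) were lower than in the CD23-negative cells as well, so the CD23 CD21-high cells lay between the 2 classes for both Notch target genes.

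In steps of 0, 1 to 2, 3 to 4, 5 to 6 and 7 or more Fcer2a UMIs among cells with 4 or more Cr2 UMIs, Ighd stood at 403, 583, 724, 751 and 841 CPM in Advanced cells and at 395, 630, 706, 719 and 802 CPM in Early cells. Fcrl5, which encodes a receptor of marginal zone and B1 cells, stood at 57.0, 41.5, 25.8, 23.5 and 15.8 CPM in Advanced and at 65.2, 35.9, 27.5, 28.5 and 16.1 CPM in Early cells. The order of these steps was the same in both libraries apart from 1 pair of neighbouring Early steps of Fcrl5. Klf2 climbed along Fcer2a, at 277, 304, 338, 385 and 493 CPM in Advanced and 227, 277, 320, 342 and 375 CPM in Early cells, so that it was high with Fcer2a and low with Cr2. The genes shown along these steps were chosen after their values were seen.

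**Figure D4:**
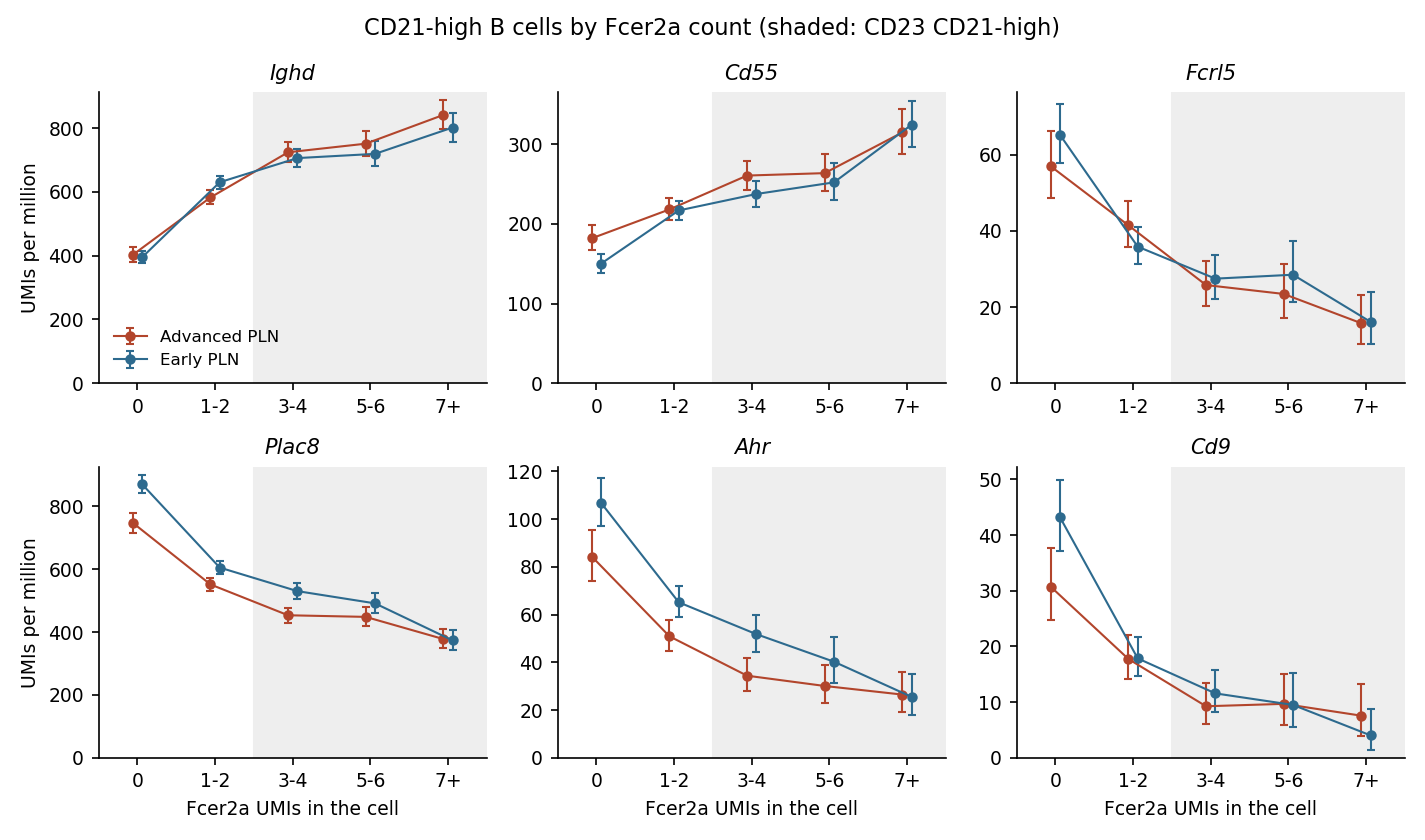
Level (CPM, vertical) of Ighd, Cd55, Fcrl5, Plac8, Ahr and Cd9 along steps of Fcer2a UMIs per cell (horizontal) among gated B-cells with 4 or more Cr2 UMIs, Advanced and Early libraries, with bars for exact 95% Poisson intervals and shading over the CD23 CD21-high cells. Ighd climbs to 841 CPM (Advanced) and 802 CPM (Early) in the highest step, where Fcrl5 is at 15.8 and 16.1 CPM.

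Between the stages, 27 of 4655 genes were past 1.5-fold and higher in the Advanced CD23 CD21-high cells (0.58%) and 7 lower (0.15%). Fcer2a and Cr2, which the rule had set, had ratios of 1.01 and 0.964. Ighm (1.03), Ighd (1.04) and the Notch genes Notch2 (0.985), Dtx1 (0.892, 0.794 to 1.00) and Hes1 (1.09) lay near 1. The median of all genes was 0.03 (log2).

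Bcl6, the transcription factor gene of germinal centre B-cells, had 31.5 CPM in Advanced and 17.5 CPM in Early CD23 CD21-high cells, a ratio of 1.80 (1.43 to 2.27), against 1.23 between the stages in the other B-cells. It was the 1 gene of 10 on the germinal centre list that reached 20 CPM over the CD23 CD21-high cells of both stages together. With at least 4 Fcer2a and 6 Cr2 UMIs the Bcl6 ratio was 1.39, short of 1.5-fold. Il9r, which encodes the receptor of IL-9, had 80.8 and 46.3 CPM (1.74, 1.51 to 2.01, against 1.53 in the other B-cells). Slc2a3, a glucose transporter gene, had 32.7 and 19.0 CPM (1.72, 1.38 to 2.16, against 1.15). Whether these ratios differ between the classes was not tested, since each class had 1 library per stage. The non-coding Snhg9 (1.99, against 1.79), Pus3 (1.72, against 1.46), Gm5914 (1.63, against 1.56) and Pld4, a nuclease gene (1.53, against 1.47), were higher in both classes. The mitochondrial mt-Atp8 was also higher in the Advanced CD23 CD21-high cells (1.73).

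S100a8 and S100a9, which neutrophils make in large amounts, and Lyz2 had ratios of 154, 30.4 and 2.45, and much of their RNA lay in very few cells. In the Advanced CD23 CD21-high cells 544 of 602 UMIs of S100a8 and 475 of 564 of S100a9 lay in 1 cell, and the Early cells had 4 and 19. An S100a8 UMI was nevertheless present in 56 Advanced cells, against 4 Early cells. Without the 3 Advanced and 2 Early cells with 5 or more UMIs summed over these 3 genes, the ratios were 14.9, 4.97 and 2.18, the levels of all 3 fell under the minimum, and 22 genes were higher and 7 lower. Neutrophil markers summed to 178 CPM in Advanced and 3.42 CPM in Early CD23 CD21-high cells, with Retnlg at 0 in the Early ones, and to 23.6 and 3.08 CPM in the other B-cells.

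Of the 7 genes that were lower in Advanced CD23 CD21-high cells, Apoe had 123 CPM in the Advanced and 226 CPM in the Early library, a ratio of 0.545 (0.4997 to 0.594), against 0.825 in the other B-cells. Cxcr4, the receptor gene for CXCL12, had 39.6 and 67.6 CPM (0.586, 0.501 to 0.684, against 0.639). Fosb, an immediate early gene that tissue digestion can induce, had 37.1 and 60.7 CPM (0.612, against 0.812). In CD23 CD21-high cells of 6000 to 9000 UMIs its ratio was 0.874. The 12 measured dissociation stress genes had a median of 0.05 (log2), with Fosb the 1 called. Whether handling of the tissue had a part was not tested. Top3b (0.608), the histone genes Hist1h1d (0.630) and Hist1h2ae (0.665) and Sdf2l1 (0.654), a gene of the endoplasmic reticulum, made up the rest. Of the 10 higher and 7 lower stage genes named by rank, some stayed past 1.5-fold both with an equal distribution of UMIs and at 6000 to 9000 UMIs. These were 5 higher (Snhg9, Il9r, Bcl6, Slc2a3 and Pus3) and 4 lower (Apoe, Cxcr4, Top3b and Hist1h1d). With the stricter rule 14 of the 27 higher and 2 of the 7 lower genes were still counted. Of the genes just named, Bcl6 (1.39), Pus3 (1.47) and Hist1h1d (0.766) fell short of 1.5-fold with that rule. Top3b (0.561) fell under the minimum CPM, and the rest of those named were still counted. The list of antibody secretion and endoplasmic reticulum genes had a median of -0.18, with 11 of 14 below 1 and Sdf2l1 the 1 called, where 56.3% of all 4655 genes lay above 1. The genes of T-cell help changed little: Cd40 had 78.4 and 61.3 CPM (1.28, 1.12 to 1.46) and Il21r 89.2 and 86.3 CPM (1.03, 0.920 to 1.16), and 0 of 10 on that list were called.

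RNA of other cells differed between the libraries and moved with the stage. In the CD23 CD21-high cells the 8 T-cell markers summed to 48.3 CPM in the Advanced and 20.05 CPM in the Early library (52.0 and 18.1 CPM in the other B-cells), the 5 NK and cytotoxic markers to 29.7 and 1.48 CPM, with Gzma and Ncr1 at 0 in the Early library, and the 6 myeloid markers to 103 and 69.8 CPM. The dendritic markers summed to 11.4 and 2.97 CPM and the plasma cell markers to 53.0 and 54.5 CPM. Stromal and follicular dendritic cell markers summed to 2.74 and 1.63 CPM, with Cxcl12, Col1a2 and Pdpn at 0 in both. The part of these in the stage ratios was not tested. The libraries shared 20 barcodes, of which 0 belonged to a CD23 CD21-high cell.

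The last comparison was that of antibody class. Ighg2b, the constant gene of IgG2b, stood at 74.6 CPM in Advanced and 20.2 CPM in Early CD23 CD21-high cells (490 and 136 UMIs), a ratio of 3.69 (3.05 to 4.50). The other B-cells had 93.5 and 24.6 CPM, a ratio of 3.81 (3.54 to 4.10). Among them the CD23-high CD21-low cells had 86.7 and 14.3 CPM, a ratio of 6.05 (4.75 to 7.79). The CD21-high CD23-negative cells had 73.7 and 18.8 CPM, a ratio of 3.93 (3.03 to 5.14). T-cells, which do not make it, had 51.7 and 1.53 CPM, the last from 1 UMI in 73 cells. After thinning to 5000 UMIs, an Ighg2b UMI was present in 30.3% of Advanced (27.0% to 33.8%) and 7.24% of Early (5.52% to 9.30%) CD23 CD21-high cells, in 30.7% and 7.98% of the other B-cells, and in 25.9% (22.1% to 30.0%) and 1.37% (0.0347% to 7.40%) of T-cells. Without thinning the shares were 45.2% and 11.3% in the CD23 CD21-high cells and 39.1% and 1.37% in the T-cells. The thinned intervals of the CD23 CD21-high cells and the T-cells overlapped in each library. Over all UMIs the levels did not overlap, with 68.1 to 81.5 CPM in the Advanced and 16.9 to 23.9 CPM in the Early CD23 CD21-high cells, against 45.4 to 58.5 CPM and 0.0387 to 8.52 CPM in the T-cells. Since the T-cells are a low estimate of free RNA, how much of this Ighg2b was free RNA was not tested.

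Cells with 5 or more Ighg2b UMIs, a number that no T-cell reached, were 4 of 723 Advanced (0.553%) and 4 of 773 Early (0.517%) CD23 CD21-high cells, with at most 18 and 17 UMIs in a cell. Among the other B-cells there were 57 (1.43%) and 28 (0.501%). The median cell held 0 Ighg2b UMIs in each class and library. Ighd was read in 94.9% and 93.5% of the CD23 CD21-high cells after thinning, against 13.97% and 10.96% of T-cells.

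**Figure D5:**
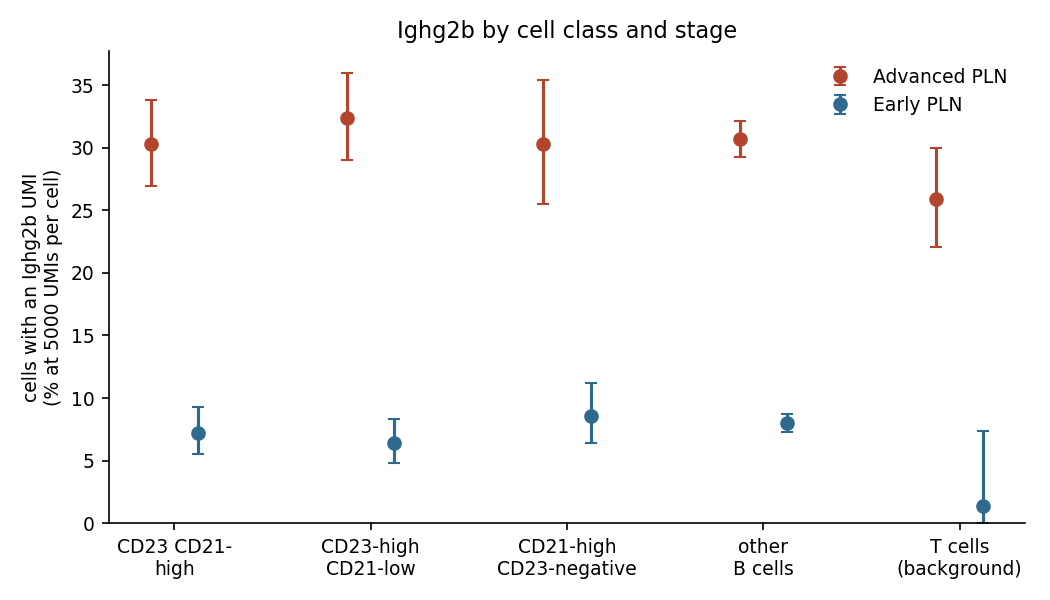
Cells in which Ighg2b was read at a depth of 5000 UMIs (vertical, percent of the class) by class of cells (horizontal), Advanced and Early libraries. Bars are exact 95% intervals for counting error. The CD23 CD21-high cells are at 30.3% (Advanced) and 7.24% (Early), and the T-cells, which measure free RNA, at 25.9% and 1.37%.

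The other switched classes had lower levels than Ighg2b. Ighg2c stood at 24.7 and 1.93 CPM in the CD23 CD21-high cells, and at 18.4 and 1.53 CPM in T-cells. Like Ighg2b, it was thus higher in the Advanced library. After thinning, an Ighg2c UMI was present in 11.3% and 1.16% of the CD23 CD21-high cells and in 9.92% and 1.37% of T-cells. How much of it was free RNA was not tested. Ighg1 had 8.37 and 2.38 CPM, Ighg3 7.002 and 9.65 CPM and Igha 3.50 and 8.46 CPM. The lambda light chain was read in 9.27% (7.25% to 11.6%) of Advanced and 8.67% (6.78% to 10.9%) of Early CD23 CD21-high cells, against 11.2% and 9.99% of the other B-cells. A heavy chain variable gene could be assigned in 89 Advanced and 76 Early CD23 CD21-high cells, and these used 46 and 40 genes. The most frequent was Ighv1-9 in the Advanced cells (6.74%) and Ighv1-64 in the Early cells (6.58%). The kappa variable gene Igkv12-44 led in both, with 11.1% and 9.33% of 90 and 75 assigned cells, over 32 and 36 genes. Reads near the end of the transcript catch the variable part in few cells, so these counts describe use of genes and not clones.

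Within the CD23 CD21-high cells most genes varied little beyond sampling. The Pearson chi-square per cell had a median of 1.21 over 2020 genes in the Advanced and 1.19 over 1912 genes in the Early library. Apoe (5.96 and 9.02), the interferon-induced Ifi27l2a (7.27 and 5.38), Junb (5.24 and 4.24), Klf2 (4.57 and 4.16) and Hes1 (4.06 and 3.53) stood well above that. Fcer2a and Cr2 had 1.17 and 1.12 in the Advanced and 1.12 and 1.15 in the Early cells, a spread that their thresholds narrowed. Apoe was found after thinning in 26.3% of Advanced and 34.5% of Early cells and Hes1 in 36.8% and 37.0%, so both were read in only a part of the cells at this depth.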

How the data were processed

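Single cells of popliteal lymph nodes were measured in 2 libraries, 1 per stage, with 83148059 (Advanced) and 67610110 (Early) UMIs. The deposited values are counts, made by the authors as whole-number UMIs per gene and barcode, without normalisation or removal of free RNA. The matrix headers give Cell Ranger 6.0.1, but Cell Ranger 3.1 and 3.1.0 stand in the submitters' processing notes, beside Seurat 4.0.3 and mm10. The version sets which reads and barcodes are counted, and the difference was not resolved. The authors had called the barcodes, and no doublets were removed here, so doublets among the deeper cells remain possible.

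UMIs were summed per library and class as CPM, with exact Poisson intervals, conditional intervals for ratios and Clopper-Pearson intervals for shares, at 95%. With 1 library per stage no test was made. A gene was counted at 1.5-fold or more, in both libraries for classes of cells, among genes at 20 CPM or more. A gene at 0 was given a floor of 3 counts. Named genes were the 12 higher and 12 lower per comparison of classes, and the 10 higher and 10 lower between stages, ranked by the interval end nearest to 1. Genes of the rule, immunoglobulin genes and mitochondrial genes were named apart, and up to 6 genes per list and a set of fixed genes were added. The cells, lists and contrasts were chosen with earlier results of these data known.

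The scripts were tested on simulated data. Python 3.11.15, numpy 2.4.6, scipy 1.17.1, pandas 2.3.3 and edgeR 4.0.16 in R 4.3.3 (for TMM factors only) were used. Positions and promoters are 1-based on GRCm38, which mm10 names. Alternatives were the minimum CPM, the totals, TMM factors, thinning, an equal distribution of UMIs, a stricter rule and leaving out the highest cell. Another 2 were added after seeing the data: cells of 6000 to 9000 UMIs only, and leaving out cells with 5 or more UMIs of S100a8, S100a9 and Lyz2.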

Additional observations from a re-analysis of the deposited data

How the results depend on the processing

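The ratio of the shares of gated B-cells that were CD23 CD21-high, Advanced over Early, was 1.26 as reported, 1.06 after thinning, 1.00 with equal UMI bins, 1.06 in cells of 6000 to 9000 UMIs and 1.57 with the stricter rule. Counts are given as genes higher and genes lower. Against the other B-cells they were 0 and 0 as reported, 513 and 1682 with no minimum CPM, 1 and 15 with an equal distribution of UMIs, 2 and 3 with the stricter rule, and 1 and 2 in cells of 6000 to 9000 UMIs, and the lower count was 3 with totals that left out immunoglobulin, ribosomal and mitochondrial genes and 1 each with TMM factors, without the highest cell and without the cells with myeloid UMIs. Against CD23-high CD21-low cells they were 16 and 5 as reported, 968 and 487 with no minimum, 8 and 3 at 50 CPM, 29 and 12 with the stricter rule, and the lower count was 12 with the other totals and 10 in cells of 6000 to 9000 UMIs. With an equal distribution of UMIs 20 and 6 genes passed, of which 8 and 2 were those reported. Between stages they were 27 and 7 as reported, 3257 and 2024 with no minimum, 5 and 2 at 50 CPM, 63 and 15 with the other totals, 88 and 25 with the stricter rule, and 92 and 27 in cells of 6000 to 9000 UMIs, and the higher count was 17 with TMM factors. Fewer or more genes enter at another minimum (19307, 17076 and 16040 genes with none) and with the other totals (6206, 6232 and 6286), and fewer cells enter with the stricter rule and the narrower depth range. What moved these counts was not tested for any of the settings. The Ighg2b ratio was 5.66 in cells of 6000 to 9000 UMIs and stayed between 3.62 and 4.12 under its other alternatives. Apart from Lyz2, no named gene changed direction in either library. The Early ratio of Lyz2 against CD23-high CD21-low cells was 0.977 without the cells with myeloid UMIs. Of 272 values of named genes under the alternatives, 205 were still counted and 67 were not, 34 of them only because the level was under the minimum CPM and 33 because a ratio was short of 1.5-fold. The alternatives of 6000 to 9000 UMIs and of cells with myeloid UMIs were added after seeing the data. No paired analysis was possible because each stage had 1 library and no test was made.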
